A study of Homo sapiens with 6 samples.

Results

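The late-numbered human miRNAs are the known mature names whose number is 4000 or higher. Members were the mature names of that kind with at least 60 counts summed over the 6 libraries of the series, with miR-4485-3p and miR-4454 left out by the rule. They came to 75 of the 1727 known mature names, or 4.34%. Another 593 late-numbered names had between 1 and 59 counts. The summed counts chose the members, so their levels below are a description and carry no test. The number and the summed counts in the rule do not use the contrast between PRMT1 and control cells. The rule was, however, set with earlier results of these data known.

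Small RNA was sequenced from BEAS-2B, an immortalised line of human bronchial epithelial cells. In the PRMT1 group, 3 libraries came from cells given pcDNA-PRMT1, a plasmid that expresses the arginine methyltransferase PRMT1, for 48 h. In the control group, 3 libraries came from cells given the plasmid pcDNA3.1 for 48 h, so both groups carried a plasmid. All libraries are of a single line, and the labels do not say whether the 3 libraries of a group came from separate cultures. The p-values therefore measure only the spread between these libraries, which may be technical. PRMT1 mRNA was not analysed here, so the over-expression itself was not checked.

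A miRNA hairpin is cut out of its primary transcript by DROSHA in the nucleus and trimmed by DICER in the cytoplasm, and an Argonaute protein then carries the mature strand. The seed, bases 2 to 8 of that strand, pairs with target mRNAs. Numbers are given in the order of registration, so high numbers mark names found late, mostly by deep sequencing. Many of them are rare or restricted to primates, and some were later found to coincide with fragments of other RNAs such as tRNA. Some are mirtrons, short introns that splicing itself frees, which therefore need no cut by DROSHA. PRMT1 places asymmetric dimethylarginine on histones and on RNA-binding proteins.

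Mature sequences from the RefSeq miRNA table (GRCh38.p14) were found for 61 of the 75 members. The 10 most abundant members are shown first, in order of level, with the seed in capitals.
miR-4488, chr11:61508599-61508616, plus strand: aGGGGGCGggcuccggcg
miR-12136, chr1:632668-632685, minus strand: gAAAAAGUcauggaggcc
miR-7977, chr3:176515103-176515120, plus strand: uUCCCAGCcaacgcacca
miR-4521, chr17:8186948-8186969, plus strand: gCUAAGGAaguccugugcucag
miR-7706, chr15:85380639-85380662, plus strand: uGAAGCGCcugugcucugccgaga
miR-4787-3p, chr3:50675130-50675153, plus strand: gAUGCGCCgcccacugccccgcgc
miR-7704, chr2:176188843-176188861, plus strand: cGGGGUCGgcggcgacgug
miR-4516, chr16:2133120-2133136, plus strand: gGGAGAAGggucggggc
miR-5582-3p, chr11:46753125-46753146, minus strand: uAAAACUUuaagugugccuagg
miR-9901, chr16:34163601-34163621, plus strand: cGGUCGCCgcgguucgccgcc

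The next lines give some of the members that varied most between libraries of the same group, that had the smallest p in either direction, or that resemble a tRNA, the end of an intron or another member. For miR-5701, miR-6511a-3p and miR-6511b-3p, which have more than 1 locus, the first in the RefSeq table is given.
miR-7975, chr19:55123225-55123242, minus strand: aUCCUAGUcacggcacca
miR-12135, chr15:73299962-73299979, plus strand: uAAAGGUUuguuuguaaa
miR-4284, chr7:73711327-73711344, plus strand: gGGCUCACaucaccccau
miR-5701, chr15:20940261-20940279, plus strand: uUAUUGUCacguucugauu
miR-4466, chr6:156779710-156779727, minus strand: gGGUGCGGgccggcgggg
miR-5010-3p, chr17:42514267-42514288, plus strand: uUUUGUGUcucccauuccccag
miR-5010-5p, chr17:42514208-42514229, plus strand: aGGGGGAUggcagagcaaaauu
miR-4525, chr17:82668281-82668301, minus strand: gGGGGGAUgugcaugcugguu
miR-4448, chr3:183886860-183886879, plus strand: gGCUCCUUggucuaggggua
miR-4714-3p, chr15:98784473-98784494, plus strand: cCAACCUAgguggucagaguug
miR-6720-5p, chr6:1390359-1390381, minus strand: uUCCAGCCcugguaggcgccgcg
miR-10396a-5p, chr21:8987617-8987635, plus strand: gGCGGGGCucggagccggg
miR-10396b-5p, chr21:8436324-8436343, plus strand: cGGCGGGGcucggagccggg
miR-6511a-3p, chr16:14925980-14926001, plus strand: cCUCACCAucccuucugccugc
miR-6511b-3p, chr16:2106679-2106701, minus strand: cCUCACCAccccuucugccugca

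The members were shorter than the other known miRNAs of at least 60 counts. Their median length was 21 bases, against 22 bases for the 537 other names with a sequence. Of the 61 members, 17 (27.9%) were shorter than 20 bases, against 14 of the 537 others (2.61%). Only 33 members (54.1%) had the usual length of 21 to 23 bases, against 484 others (90.1%). miR-4516 and miR-4443, at 17 bases, are examples of the short end, and miR-4517 and miR-4728-3p, at 25 bases, of the long end.

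The members were also richer in G and C. Their median GC share was 59.1%, against 50% in the others, and 16 members (26.2%) had a GC share of 70% or more, against 26 others (4.84%). miR-4634 reached 94.7% and miR-4466 reached 94.4%, while miR-12135 had 22.2%. A run of GGGG, read on the mature strand, stood in 16 members (26.2%) and in 36 others (6.7%). Both sets began with U about as often, in 23 members (37.7%) and 210 others (39.1%). These shares are descriptions of names chosen by level, and what sets them was not tested.

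**Figure D1:**
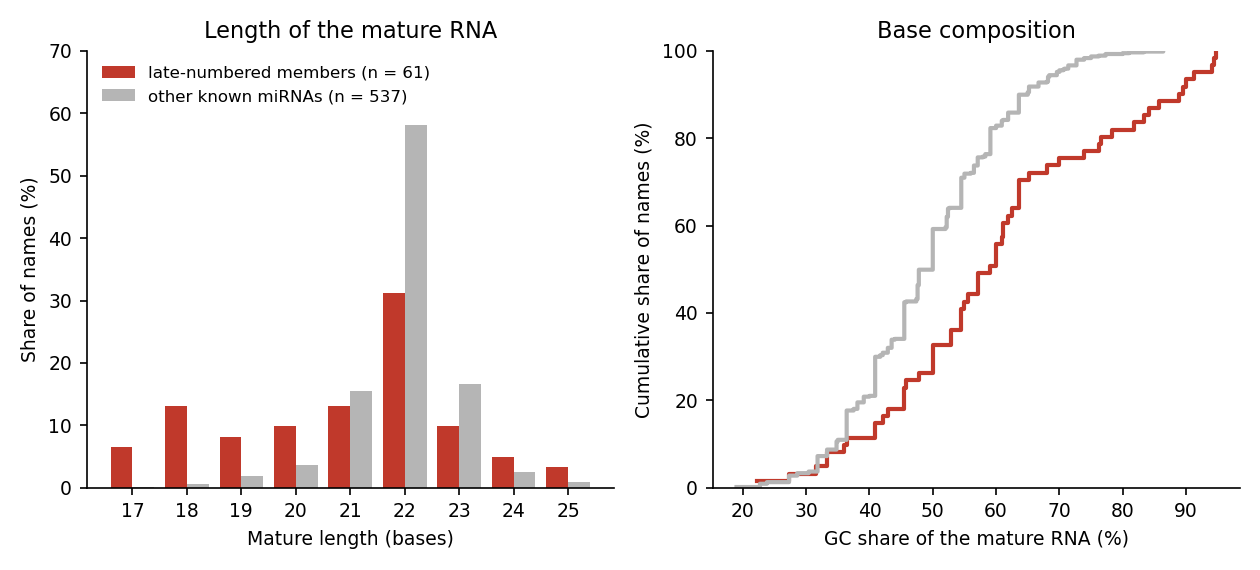
Length of the mature RNA in bases (left, bars give the share of names in percent) and GC share in percent as a cumulative curve (right), for 61 late-numbered members in red and 537 other known miRNAs of at least 60 counts in grey. The members spread over 17 to 25 bases and reach a GC share of 94.7%, whereas 90.1% of the others lie at 21 to 23 bases.

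Several members match other annotated RNAs. miR-12136 is identical to bases 1 to 18 of MT-TS1, a mitochondrial serine tRNA of 69 bases, and miR-4284 is identical to bases 49 to 66 of MT-TF, the mitochondrial phenylalanine tRNA of 71 bases. None of the 537 other names matched a mitochondrial tRNA exactly. miR-5701 matches bases 44 to 62 of the box C/D snoRNA SNORD43, of 64 bases, with 1 mismatch. miR-10396b-5p lies within RNA45SN1, a copy of the ribosomal RNA precursor. Reads of miR-12136 and miR-4284 cannot be told from reads of these tRNAs by sequence alone. Exact matches in a transcript of a protein-coding gene were found for 9 members (14.8%) and for 30 others (5.59%). Over all annotated transcripts other than miRNA hairpins, exact matches were no more common in members. They were found for 12 members (19.7%) and for 114 others (21.2%). That search cannot find RNAs that these transcripts lack. miR-10396b-5p had no match there, although it lies within RNA45SN1. The shares therefore do not decide how many names coincide with fragments of tRNA or ribosomal RNA.

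The letters CCA, which end every mature tRNA, ended 4 members (6.56%), namely miR-4484, miR-4677-5p, miR-7975 and miR-7977, against 5 others (0.931%). The longer ending CACCA, which includes CCA, was found in miR-7975 and miR-7977 and in 2 of the 537 others. An ending alone is a description and does not make a name a tRNA fragment.

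By the GENCODE 29 annotation of GRCh38, 30 members (49.2%) lay in an intron on the same strand, against 333 others (62%). Another 21 members (34.4%) had all loci outside genes annotated on the same strand, against 95 others (17.7%). Some of these overlapped a RefSeq gene when strand was not considered, such as miR-4516 with PKD1 and miR-4466 with ARID1B. They also include miR-10396b-5p, which lies within RNA45SN1. The remaining 10 members (16.4%) had a locus in an exon, against 109 others (20.3%). miR-7704 falls in coding sequence of HOXD1, a homeobox gene, and miR-7706 falls in the 5′ UTR of AKAP13, an anchor of protein kinase A. Both miR-10399 arms fall in the 3′ UTR of ZC3HAV1, which encodes the zinc-finger antiviral protein.

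The 3′ end of 8 members (13.1%) lay within 2 bases of an intron's end, where a mirtron would also end, against 6 others (1.12%). These were miR-4728-3p of ERBB2, a receptor tyrosine kinase, miR-5010-3p of ATP6V0A1, a subunit of the vacuolar proton pump, and miR-6514-3p of NXF1, the main mRNA export receptor. miR-6777-3p of SREBF1, a regulator of lipid synthesis, miR-6749-3p of ATG2A, an autophagy protein, and miR-6803-3p of PPP6R1 also belonged to them. The last were miR-6511a-3p and miR-6511b-3p, which sit in introns of NPIPA1 and of PKD1 and in pseudogene copies. The letters CAG, a common end of introns, ended 8 members (13.1%) and 14 others (2.61%). A 5′ end within 2 bases of an intron's start was found for 0 members and for 2 others (0.372%). Among the 8 members, the distance from the intron's start ran between 57 bases for miR-6803-3p and 1535 bases for miR-6514-3p. Whether these members are mirtrons was not tested.

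Seeds were almost all different, with 59 distinct seeds over the 61 members. miR-6511a-3p and miR-6511b-3p share the seed CUCACCA and a run of 13 bases. miR-4525 and miR-5010-5p share the seed GGGGGAU. miR-10396a-5p and miR-10396b-5p share a run of 19 bases that spans all of miR-10396a-5p, with seeds set off by a base, and their counts are uncertain to that extent. In all, 6 members carried the seed of another known miRNA of at least 60 counts, and only miR-9985 carried that of any of the 20 most abundant, miR-27a-3p and miR-27b-3p. miR-9985 also shares a run of 15 bases with both, so its counts are uncertain. Of the 20 most abundant names, 19 had a sequence to compare.

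The libraries held 23.95 M to 25.79 M counts (M, 1000000), of which 11.54 M to 16.42 M fell on known mature miRNAs. Control library 2 stood apart, with a scaling factor of 0.761 against 0.986 to 1.114 in the other libraries and with 4.60% of its counts on miRNA precursor rows, against 1.76% to 2.08%. CPM here means counts per 1000000 known miRNA counts after TMM scaling, which evens out differences in composition between libraries, and reads of small RNA are not scaled by length. All 7 epithelial markers were present in all libraries, with summed levels of 7990 to 8870 CPM in PRMT1 libraries and 7740 to 10100 CPM in control libraries. Most of that was miR-200a-3p, miR-200b-3p and miR-429, while miR-200c-3p, miR-141-3p, miR-205-5p and miR-203a-3p stayed at 2.64 to 61.6 CPM. miR-429 was lower in every PRMT1 library, at 1680 to 2380 CPM against 2460 to 2720 CPM in control libraries. miR-205-5p was higher, at 6.27 to 8.78 CPM against 3.89 to 6.09 CPM. The groups overlapped for the other epithelial markers. Over all 668 names tested, the groups did not overlap for 10.2%. Markers of other cell types were not all absent. miR-126-3p of endothelium stood at 1580 to 2230 CPM in PRMT1 libraries and 1650 to 2000 CPM in control libraries. miR-9-5p of neurons stood at 171 to 251 CPM in PRMT1 libraries and 182 to 228 CPM in control libraries. The other neuron marker, miR-124-3p, stood at 12.5 to 42 CPM and 11.9 to 15.1 CPM in PRMT1 and control libraries. The blood markers summed to 7.28 to 20.1 CPM in PRMT1 libraries and 4.26 to 8.80 CPM in control libraries, nearly all of it miR-451a. Muscle markers and fibroblast markers each summed to between 9.17 and 34.8 CPM in any library, miR-122-5p of liver had at most 19 counts and miR-302a-3p of pluripotent cells at most 1. The part of these markers in the results was not tested. In bulk RNA, fewer cells of a kind and less RNA per cell cannot be told apart.

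Together the 75 members took up 0.0949%, 0.0897% and 0.0971% of known miRNA counts in PRMT1 libraries 1 to 3, against 0.0966%, 0.0430% and 0.111% in control libraries 1 to 3. The group means were 0.0939% ± 0.00379 in PRMT1 cells and 0.0835% ± 0.0358 in control cells (SD, n = 3 each). The 3 PRMT1 libraries lay close together, and control library 2 was low, with a 95% Wilson interval of 0.0421% to 0.0441% that covers counting error only. The PRMT1 values fell inside the control range. Without control library 2 the control mean was 0.104%. As a share of all counts, the members made up 0.0492% in PRMT1 cells and 0.0435% in control cells.

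**Figure D2:**
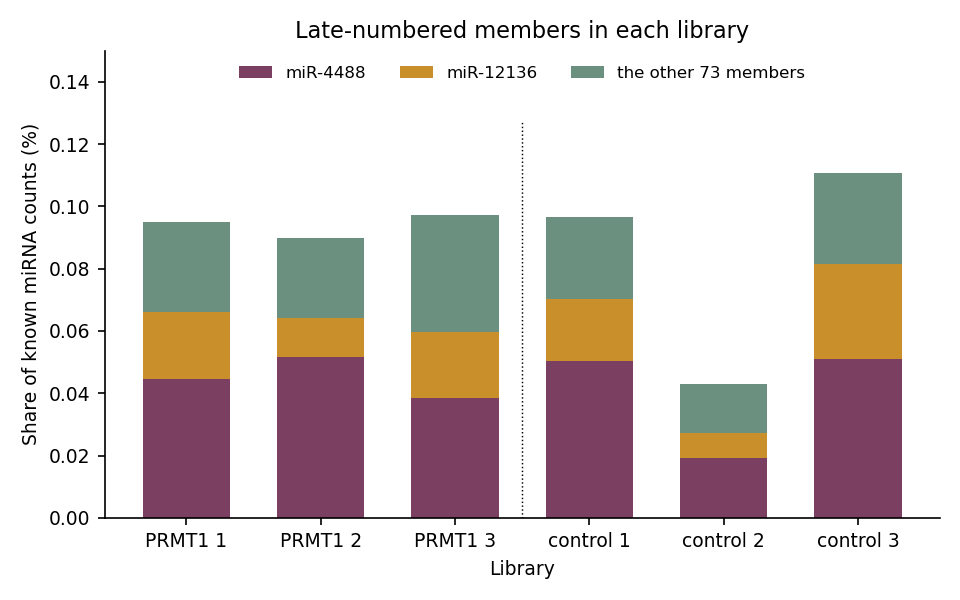
Share of known miRNA counts, in percent, held by miR-4488, miR-12136 and the other 73 members in each of the 3 PRMT1 and 3 control libraries, as stacked bars. The bars reach 0.0897% to 0.0971% in PRMT1 libraries, and control library 2 stands lowest at 0.0430%.

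The counts were concentrated in a few names. miR-4488 and miR-12136 held 69.14% of the members' counts, and the next 4, miR-7977, miR-4521, miR-7706 and miR-4787-3p, held 12.94%. At the other end, 61 members had under 300 counts each and together held about as much as those 4, with 10.06% in the 44 names of 100 counts or more and 2.04% in the 17 names of fewer than 100. The median member had 153 counts over 6 libraries, against 1109 for the 597 other known miRNAs of at least 60 counts. Mean levels ran between 0.752 and 414 CPM with a median of 1.95 CPM, and 69 members averaged under 10 CPM. The best rank among known miRNAs was 92, for miR-4488, and the median rank was 533.

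By registration number, the 6000s held few members for their number of names. The 4000s gave 33 members of 247 listed names, the 5000s 7 of 63, and the 6000s 11 of 294. The 7000s gave 7 of 29, the only listed name in the 8000s was a member, and names of 9000 and above gave 16 of 36. The leading names of these blocks were miR-4488, miR-5582-3p, miR-6724-5p, miR-7977, miR-8485 and miR-12136.

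miR-4488, the most abundant member, had 6440, 6147 and 4664 counts in PRMT1 libraries, against 6224, 3158 and 5885 in control libraries. It averaged 438 ± 60.02 CPM in PRMT1 cells and 389 ± 118 CPM in control cells (SD, n = 3 each). Control library 2 was the lowest and the groups overlapped. Its log2 fold change was 0.17 (SE 0.28, adjusted p = 0.929, edgeR quasi-likelihood test over 668 miRNAs), and it was -0.08 without control library 2.

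miR-12136, the name identical to the start of MT-TS1, had 3110, 1503 and 2568 counts in PRMT1 libraries, against 2504, 1298 and 3508 in control libraries. It averaged 180 ± 49.5 CPM in PRMT1 cells and 187 ± 84.6 CPM in control cells (SD, n = 3 each). Library 2 was the lowest of both groups, and the groups overlapped fully. The edgeR log2 fold change was -0.05 (SE 0.37, adjusted p = 0.983). Rows of class hairpin under the same name added 257, 111 and 174 counts in PRMT1 libraries and 159, 105 and 274 counts in control libraries.

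miR-4521, which has been linked to the transcription factor FOXM1 in cancer cells, was among the steadiest. It had 408, 340 and 414 counts in PRMT1 libraries, against 477, 506 and 426 in control libraries. It averaged 29.7 ± 4.32 CPM and 36.2 ± 3.82 CPM in PRMT1 and control cells (SD, n = 3 each). The highest PRMT1 library lay above the lowest control library, so the groups overlapped at the edge. The edgeR log2 fold change was -0.29 (SE 0.23, adjusted p = 0.796).

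miR-7706 had 323, 350 and 323 counts in PRMT1 libraries and 437, 317 and 319 in control libraries. miR-4787-3p was at 20.3, 34.0 and 11.8 CPM in PRMT1 libraries and at 11.9, 17.04 and 21.2 CPM in control libraries. Both overlapped between groups, with edgeR log2 fold changes of -0.10 (SE 0.25) for miR-7706 and 0.40 (SE 0.39) for miR-4787-3p. Leaving out PRMT1 library 2 turned the second to -0.08. Neither passed the test, at adjusted p = 0.961 for miR-7706 and 0.845 for miR-4787-3p.

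miR-4516, known to target STAT3 in keratinocytes, had 157, 135 and 60 counts in PRMT1 libraries and 86, 78 and 113 in control libraries. miR-5582-3p had 84, 70 and 87 counts in PRMT1 libraries and 119, 112 and 88 in control libraries. miR-9901 had 128, 81 and 104 counts in PRMT1 libraries and 75, 57 and 95 in control libraries. In CPM all 3 names overlapped between groups, though for miR-9901 PRMT1 library 2 alone lay within the control range. Their log2 fold changes were 0.30 (SE 0.36) for miR-4516, -0.41 (SE 0.28) for miR-5582-3p and 0.44 (SE 0.30) for miR-9901. miR-4516 was at 0.08 without PRMT1 library 2 and at 0.58 without PRMT1 library 3, and miR-9901 was at 0.28 without control library 2.

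**Figure D3:**
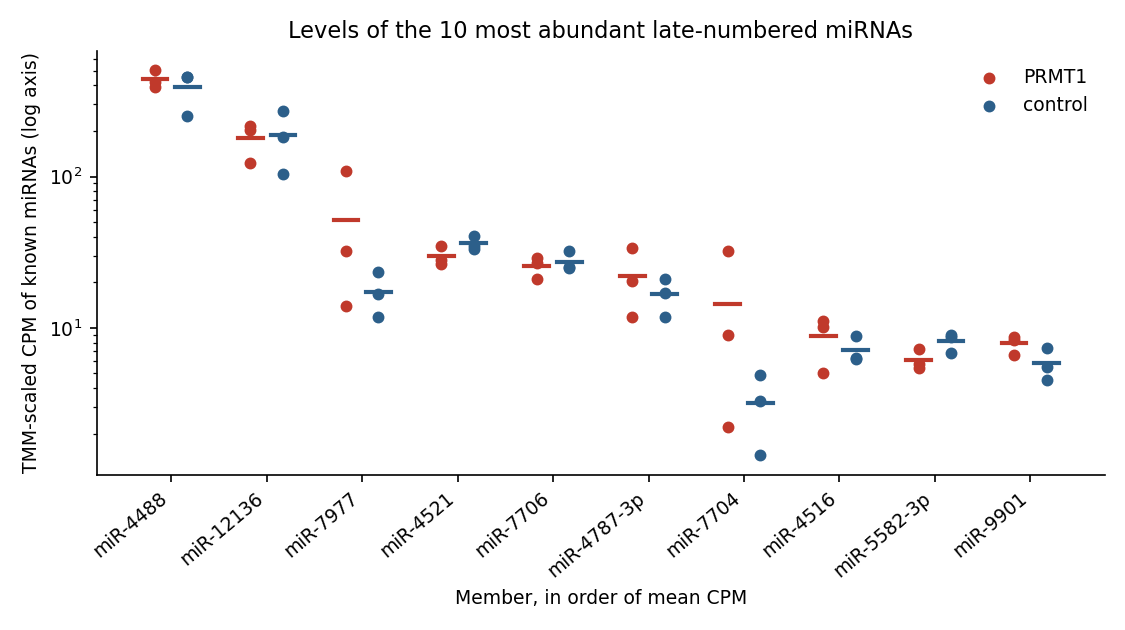
TMM-scaled CPM of the 10 most abundant members on a log axis, with each library as a point (PRMT1 red, control blue) and the group mean as a bar. The points of both groups overlap for every name, and miR-7977 and miR-7704 spread most, up to 109.5 and 32.2 CPM in PRMT1 library 3.

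Detection was nearly complete, which the limit of 60 counts in part ensured. All 75 members had a read in each PRMT1 library, and 74, 75 and 75 had a read in control libraries 1 to 3. The single absence was miR-10396a-5p in control library 1, where 3 counts would have been 0.22 CPM. Of the 75, 52 had at least 10 reads in every library and 23 did not. Over all 670 late-numbered names, 444, 441 and 396 had a read in PRMT1 libraries, against 427, 368 and 446 in control libraries.

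At the limit itself, miR-6777-3p and miR-5699-5p were just inside with 61 counts each, while miR-6513-3p with 56 and miR-6820-5p with 55 were just outside. miR-5699-5p had 16, 6 and 1 counts in PRMT1 libraries and 17, 5 and 16 in control libraries. miR-6777-3p had 7, 14 and 3 counts in PRMT1 libraries and 10, 4 and 23 in control libraries. At this depth single libraries held a handful of reads, and the values overlapped between groups.

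The comparison of PRMT1 with control cells asked whether PRMT1 over-expression changes miRNA levels. No member passed an adjusted p of 0.05 in the edgeR quasi-likelihood test, and neither did any of the 668 known miRNAs tested (0%). Of the 75 members, 73 entered the test and miR-12135 and miR-6777-3p did not pass the filter on low counts. The lowest adjusted p was 0.741 over members and 0.352 over all names. In simulated data, not limited to members, the fit recovered 27% of 2-fold changes and 90.3% of 4-fold changes. The absence of calls therefore does not exclude changes of about 2-fold. At an unadjusted p under 0.05 there were 5 members of 73 (6.85%), against 36 of 668 names (5.39%). Of the 5 members, 4 were higher in PRMT1 cells, against 2.84% of all names, and 1 was lower, against 2.54% of all names. DESeq2 without a filter called 4 of 1724 names (0.232%), of which miR-12135 was a member, and limma-voom called 0.

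Fold changes of members were centred near 0, with larger standard errors than over all names. The median log2 fold change was 0.02 over the 73 members and 0.04 over all 668 names. A value above 0 was found for 38 of 73 members (52.1%) and for 360 of 668 names (53.9%), and under RLE scaling for 36 of 73. Members ran between -0.97 and 2.16, and 7 of them reached 1 in either direction, against 38 of 668. The median standard error was 0.428 for members and 0.337 for all names. It was 0.320 for the 4 members at 10 to 100 CPM and 0.456 for the 40 under 2 CPM.

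**Figure D4:**
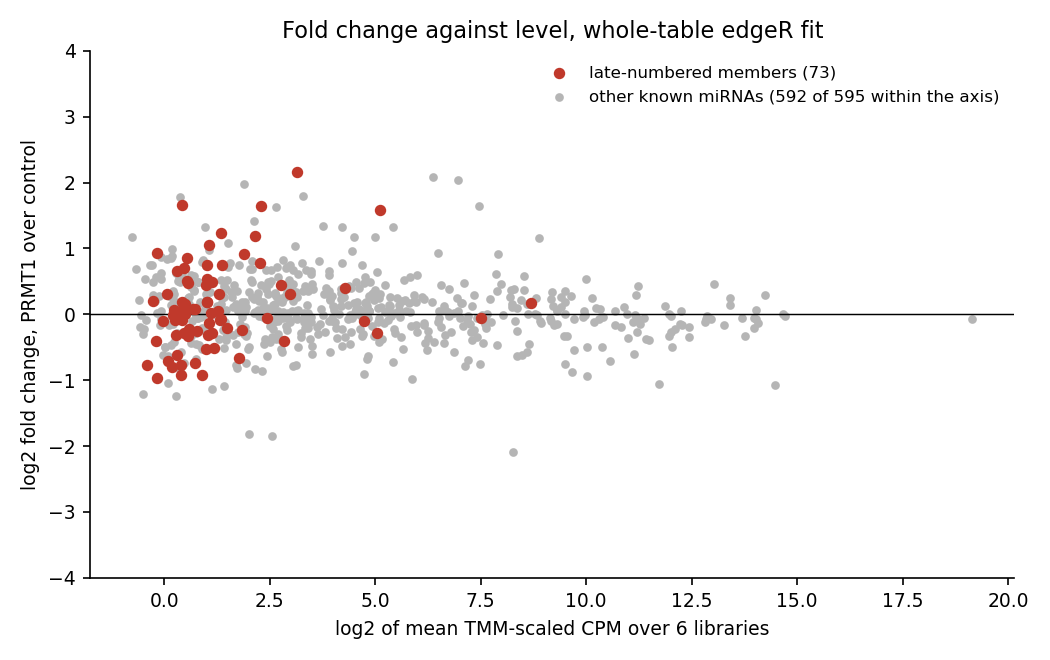
Log2 fold change, PRMT1 over control, against the log2 of mean TMM-scaled CPM, for 73 members (red) and 592 of the 595 other tested miRNAs that fall within the axis limit of 4 (grey). Most members sit at the low end of the level axis, between -0.97 and 2.16, on both sides of 0.

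Groups that did not overlap were found for 5 members of 73 (6.85%), against 68 of 668 names (10.2%). PRMT1 cells were higher for miR-5010-3p, miR-6720-5p and miR-4440 (36 of 668 names, 5.39%) and lower for miR-4525 and miR-4714-3p (32 of 668, 4.79%). The share of members was no larger than that of all names.

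miR-5010-3p, which ends at the end of an ATP6V0A1 intron, had 66, 78 and 45 counts in PRMT1 libraries, against 37, 34 and 29 in control libraries. It averaged 4.82 ± 1.40 CPM in PRMT1 cells and 2.56 ± 0.267 CPM in control cells (SD, n = 3 each). Every PRMT1 library lay above every control library. The log2 fold change was 0.91 (SE 0.33) with an unadjusted p of 0.0203 and an adjusted p of 0.741 by edgeR, so it did not pass the test. Leaving out single libraries gave log2 fold changes of 0.62 to 1.05.

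Its partner miR-5010-5p had 39, 30 and 17 counts in PRMT1 libraries and 21, 39 and 13 in control libraries, a difference of 0.19 log2 units (SE 0.46) that ran between -0.15 and 0.72 when single control libraries were left out, library 3 giving the lower value and library 2 the higher. The 3p arm made up 62.9%, 72.2% and 72.6% of both arms in PRMT1 libraries, against 63.8%, 46.6% and 69.0% in control libraries. Control library 2 was low and the other values lay together, at a mean of 69.2% ± 5.51 in PRMT1 cells and 59.8% ± 11.8 in control cells (SD, n = 3 each). The other hairpin with both arms among the members, miR-10399, had a 3p share of 64.3% ± 14 and 66.6% ± 5.44 in PRMT1 and control cells (SD, n = 3 each). Of the 41 members named with an arm, 31 had reads listed for the other arm, and 17 of these held 90% or more of the counts of both.

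miR-6720-5p had 21, 27 and 19 counts in PRMT1 libraries and 13, 15 and 13 in control libraries. miR-4440, which lies in an intron of the histone deacetylase gene HDAC4 and was singled out here after its values were seen, had 32, 33 and 35 counts in PRMT1 libraries and 21, 24 and 26 in control libraries. Both were higher in all PRMT1 libraries. Neither passed the edgeR test, with log2 fold changes of 0.70 (SE 0.36, adjusted p = 0.741) for miR-6720-5p and 0.49 (SE 0.32, adjusted p = 0.773) for miR-4440. Without PRMT1 library 2 miR-6720-5p was at 0.45.

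The other names with the smallest p above 0 were miR-4466, miR-5701, miR-4286 and miR-7704. miR-4466 had 73, 29 and 42 counts in PRMT1 libraries, against 16, 11 and 32 in control libraries. miR-5701, which resembles SNORD43, had 147, 37 and 71 counts in PRMT1 libraries, against 39, 19 and 48 in control libraries. Each overlapped through PRMT1 library 2 and control library 3. Their edgeR log2 fold changes were 1.23 (SE 0.45) for miR-4466 and 1.19 (SE 0.48) for miR-5701, with adjusted p = 0.741 for both. Without PRMT1 library 1 they were 0.92 for miR-4466 and 0.68 for miR-5701.

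miR-4286 had 42, 10 and 31 counts in PRMT1 libraries, against 4, 4 and 17 in control libraries. PRMT1 library 2 lay below control library 3, which alone among controls passed 4 counts. The edgeR log2 fold change was 1.67 (SE 0.66, adjusted p = 0.741) and was 2.66 without control library 3.

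miR-7704 had 138, 27 and 385 counts in PRMT1 libraries, against 67, 18 and 42 in control libraries. It averaged 14.5 ± 15.7 CPM in PRMT1 cells and 3.21 ± 1.74 CPM in control cells (SD, n = 3 each). PRMT1 library 3 was far above the rest and PRMT1 library 2 was below control libraries 1 and 3. The edgeR log2 fold change was 2.16 (SE 1.02, adjusted p = 0.741), the largest among tested members, and was 0.80 without PRMT1 library 3.

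miR-7977 and miR-7975, the names that end in CACCA, followed the same libraries. miR-7977 had 494, 169 and 1309 counts in PRMT1 libraries, against 229, 147 and 300 in control libraries. miR-7975 had 104, 12 and 173 counts in PRMT1 libraries, against 28, 30 and 34 in control libraries. PRMT1 library 3 was highest and PRMT1 library 1 second for both, and PRMT1 library 2 lay within or below the controls.

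The edgeR log2 fold changes were 1.58 (SE 0.79) for miR-7977 and 1.64 (SE 0.83) for miR-7975, with adjusted p = 0.741 for both. Without PRMT1 library 3 they were 0.41 for miR-7977 and 0.72 for miR-7975. All 4 members that end in CCA had values above 0, with a median of 1.16, against 360 of all 668 names (53.9%) above 0. The 5 other known miRNAs with that ending were not compared, so the direction cannot be called particular to members. Rows of class tRNA had another order of libraries than miR-7977 and miR-7975. They took 0.292%, 0.567% and 0.506% of all counts in PRMT1 libraries 1 to 3 and 0.385%, 0.354% and 0.328% in control libraries. PRMT1 library 2 had the highest share of tRNA rows and the lowest counts of both names among PRMT1 libraries. That class pools all tRNA rows, and whether miR-7977 and miR-7975 reads come from tRNA was not tested.

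miR-12135, which did not pass the filter on low counts, had 55, 4 and 83 counts in PRMT1 libraries, against 7, 1 and 3 in control libraries. PRMT1 library 2 lay below control library 1, so the groups overlapped. By DESeq2 it was 3.66 log2 units higher in PRMT1 cells (SE 0.94, adjusted p = 0.0444), whereas the edgeR fit without a filter did not call it.

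The pattern of PRMT1 libraries 1 and 3 above all other libraries was picked after the values were seen and carries no test. It was found for 12 members (16%), against 63 of the 597 other names (10.6%). The 12 were miR-12135, miR-7975, miR-4286, miR-7704, miR-5701, miR-4466, miR-7977, miR-4791, miR-4634, miR-4484, miR-9901 and miR-8485. miR-4485-3p, left out by the rule, had the same order with 204, 57 and 328 counts in PRMT1 libraries and 78, 28 and 65 in control libraries. Rows of class rRNA took 1.70%, 4.03% and 2.87% of all counts in PRMT1 libraries 1 to 3, against 3.39%, 2.37% and 4.17% in control libraries. PRMT1 libraries 1 and 3 had lower rRNA shares than PRMT1 library 2. Control library 2, which is not one of the high pair, also had a lower share than PRMT1 library 3. The part of RNA composition in these values was not tested.

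**Figure D5:**
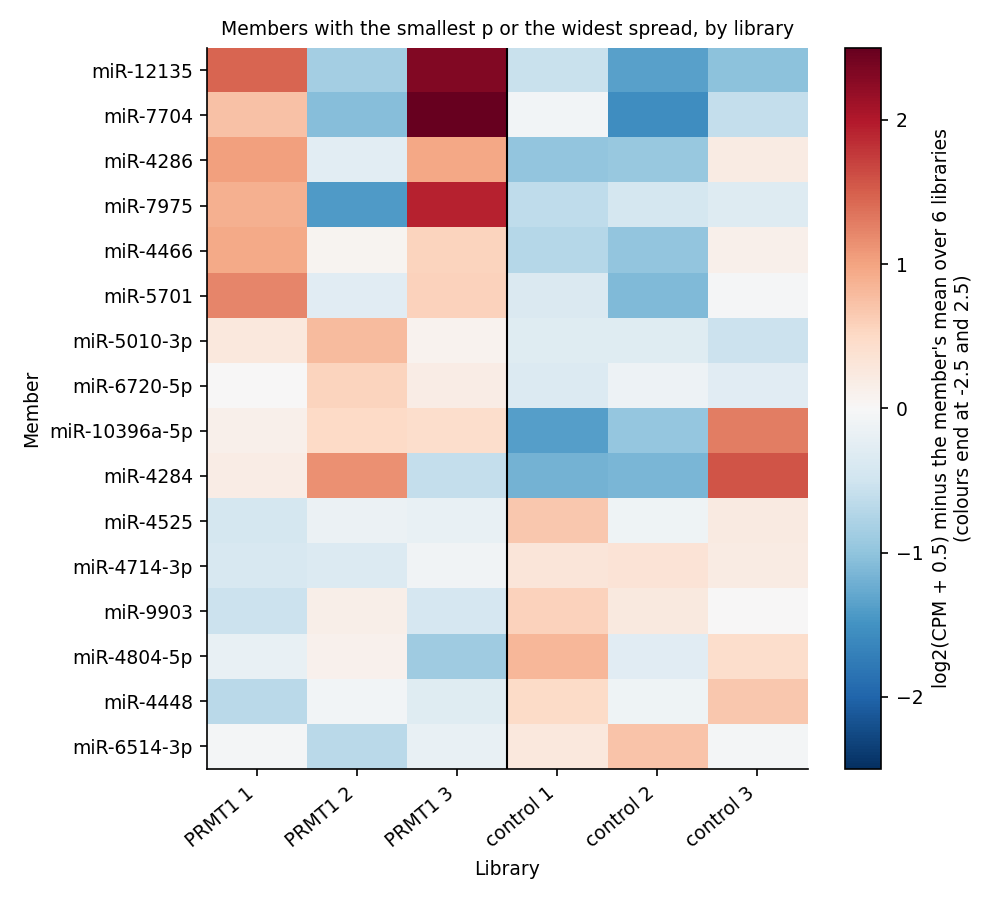
log2(CPM + 0.5) of 16 members in each library, minus the member's mean over the 6 libraries, with PRMT1 libraries left and control libraries right of the line and colours ending at -2.5 and 2.5. The 6 rows at the top are highest in PRMT1 libraries 1 and 3, and miR-4284 and miR-10396a-5p are highest in control library 3.

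A split by length, chosen after the values were seen and therefore without a test, set the short members apart from the long ones. Of the 17 members under 20 bases, 16 were tested, and 14 of them had a log2 fold change above 0, with a median of 0.62. Of the 44 members of 20 bases or longer, 43 were tested, and 18 had a value above 0, with a median of -0.10. The 14 other known miRNAs under 20 bases did not share the direction, with 5 above 0 and a median of -0.34. RLE, upper quartile and library size scaling left the count of short members at 14 of 16, with medians of 0.58 to 0.63. Without control library 2 it was 12 of 17.

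Without miR-4488 and miR-12136, the short members summed to 91.0, 46.8 and 194 CPM in PRMT1 libraries, against 44.4, 29.8 and 63.3 CPM in control libraries. PRMT1 library 2 lay within the control range, so the sums overlapped. Leaving out PRMT1 library 3 gave the short members a median of 0.47, and leaving out control library 2 gave 0.57. Leaving out control library 3 gave 1.43. The long members summed to 144, 171 and 151 CPM in PRMT1 libraries, against 163, 153 and 167 CPM in control libraries. Members of high GC share also leaned upward, with 13 of 15 tested members at 70% GC or more above 0 and a median of 0.31. That median was 0.15 without control library 2, with 9 of 16 above 0, and 0.56 without control library 3, with 16 of 16 above 0. The 26 other known miRNAs at 70% GC or more had 15 above 0 and a median of 0.04. The length and GC classes of members overlap. Members of 20 bases or longer at 70% GC or more had 6 of 8 tested above 0 and a median of 0.13. Without control library 2 that was 4 of 9. Members under 20 bases with less than 70% GC had 7 of 9 tested above 0 and a median of 0.74.

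Lower values in PRMT1 cells were smaller in size. miR-4448, which lies in an intron of the pseudogene RPSAP31, had 14, 20 and 16 counts in PRMT1 libraries, against 36, 20 and 40 in control libraries. It averaged 1.30 ± 0.369 CPM in PRMT1 cells and 2.45 ± 0.773 CPM in control cells (SD, n = 3 each). The highest PRMT1 library met the lowest control library, library 2 in both groups. The edgeR log2 fold change was -0.92 (SE 0.39) at an unadjusted p of 0.0411 and an adjusted p of 0.741.

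miR-4714-3p, in an intron of the growth factor receptor gene IGF1R, had 13, 11 and 14 counts in PRMT1 libraries, against 23, 22 and 20 in control libraries. miR-4525, in an intron of RAB40B, had 16, 17 and 16 counts in PRMT1 libraries, against 39, 18 and 25 in control libraries. In CPM both were lower in every PRMT1 library, miR-4525 by a narrow margin against control library 2. Their edgeR log2 fold changes were -0.78 (SE 0.35) for miR-4714-3p and -0.73 (SE 0.38) for miR-4525, with adjusted p = 0.741 for both. Without control library 1 miR-4525 was at -0.44.

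The remaining names with the smallest p below 0 were miR-6514-3p, miR-4804-5p and miR-9903. Their edgeR log2 fold changes were -0.97 (SE 0.49) for miR-6514-3p, -0.92 (SE 0.52) for miR-4804-5p and -0.79 (SE 0.44) for miR-9903, each with adjusted p = 0.741. Counts in single libraries ran between 4 and 34, and the groups overlapped for all 3. When single libraries were left out, miR-4804-5p ran between -1.31 and -0.57, the weaker value without control library 1, and miR-9903 ran between -1.22 and -0.58, the stronger value without PRMT1 library 2.

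The members that end at an intron's end did not move together. Of 8, 7 were tested, 2 had a log2 fold change above 0 and 5 below, with a median of -0.11. miR-4728-3p of ERBB2 had 17, 37 and 18 counts in PRMT1 libraries, against 42, 17 and 46 in control libraries. Its edgeR log2 fold change was -0.52 (SE 0.49, adjusted p = 0.837). Library 2 was the highest of the PRMT1 group and the lowest of the control group.

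The pairs of related sequence were compared by their values alone. The log2 fold changes were -0.01 (SE 0.55) for miR-6511a-3p and -0.31 (SE 0.36) for miR-6511b-3p. When single libraries were left out they ran between -0.39 and 0.59 for miR-6511a-3p and between -0.57 and -0.12 for miR-6511b-3p. miR-10396a-5p had 14, 16 and 15 counts in PRMT1 libraries, against 0, 2 and 34 in control libraries, and miR-10396b-5p had 12, 16 and 20 against 12, 14 and 33. Control library 3 was highest for both, and the low values of miR-10396a-5p in control libraries 1 and 2 had no counterpart in miR-10396b-5p. Their log2 fold changes were 0.31 (SE 1.23) for miR-10396a-5p and -0.29 (SE 0.50) for miR-10396b-5p, and miR-10396a-5p was at 3.70 without control library 3.

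miR-4284, identical to a stretch of MT-TF, was the other name with a wide spread among controls. It had 21, 38 and 7 counts in PRMT1 libraries, against 3, 3 and 56 in control libraries. Control library 3 alone was high in its group, and the log2 fold change of 0.07 (SE 1.24) became 2.77 without it. miR-12136, the other name identical to a mitochondrial tRNA, was also highest in control library 3.

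Among the leading names of the number blocks, miR-6724-5p had 53, 21 and 26 counts in PRMT1 libraries, against 28, 14 and 51 in control libraries. miR-8485 had 39, 12 and 19 counts in PRMT1 libraries, against 16, 12 and 20 in control libraries. The log2 fold changes were 0.05 (SE 0.48) for miR-6724-5p and 0.48 (SE 0.43) for miR-8485, and both names overlapped between groups. The value of miR-8485 was 0.02 without PRMT1 library 1 and 0.72 without PRMT1 library 2, and that of miR-6724-5p ran between -0.33 and 0.56.

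The other 42 members, outside the rule for named miRNAs, all entered the test at mean levels of 0.831 to 5.40 CPM. Their log2 fold changes ran between -0.71 and 1.04, with 20 above 0 and 22 below, and their lowest adjusted p was 0.741 by edgeR. The values of single libraries spread by a median CV of 33.3% in PRMT1 cells and 34.6% in control cells over all 75 members. Both ends of the range, named here after their values were seen, rested on single libraries. miR-4664-5p at the upper end had 78, 26 and 14 counts in PRMT1 libraries, against 12, 17 and 24 in control libraries. miR-4768-5p at the lower end, from an intron of NHS, had 14, 7 and 11 counts in PRMT1 libraries, against 27, 8 and 17 in control libraries. PRMT1 library 1 and control library 1 held the highest values, and the groups overlapped for both names.

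miR-4479 in an intron of TRAF2, an adaptor of TNF receptor signalling, and miR-6815-5p in an intron of the collagen gene COL18A1 are examples of values near 0, chosen after they were seen. miR-4479 had 25, 10 and 21 counts in PRMT1 libraries, against 23, 10 and 22 in control libraries. miR-6815-5p had 34, 24 and 28 counts in PRMT1 libraries, against 25, 37 and 21 in control libraries. Values overlapped fully for both, with standard errors of 0.44 for miR-4479 and 0.35 for miR-6815-5p on the log2 scale.

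miR-4423-5p was singled out after its values were seen, because miR-4423 is known as a primate-specific regulator of airway epithelial differentiation. It had 14, 19 and 20 counts in PRMT1 libraries, against 17, 30 and 15 in control libraries. It averaged 1.38 ± 0.412 CPM in PRMT1 cells and 1.61 ± 0.690 CPM in control cells (SD, n = 3 each). The groups overlapped, and edgeR put the log2 fold change at -0.22 (SE 0.43, adjusted p = 0.936).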

How the data were processed

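The 6 deposited tables, 1 per library, list small RNA names with a raw count, a class and a TPM value, per the file headers. HISAT, Bowtie2, RSEM and GRCh37.p13 are named in the submitters' processing notes, and their versions and roles are not given in the sources used here. Deposited TPM values equal the count per 1000000 of all counts in the library within 0.005, so only the deposited counts were tested. The labels' extraction text describes mRNA enrichment, although the tables hold small RNA. The check of library copies found every pair of libraries different beyond counting noise.

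Counts of the 1727 known mature names were fitted together in R 4.3.3 with edgeR 4.0.16 (filterByExpr by group, TMM, robust quasi-likelihood), with Benjamini-Hochberg adjustment over the 668 names tested and a threshold of 0.05. Standard errors are the absolute log2 fold change over the root of F. DESeq2 1.42.0, limma-voom 3.58.1, other scalings and filters, and leaving out each library were alternatives. The fit was tested on simulated data, in 5 runs with 200 changed names each and 651 names tested. It recovered 27% of 2-fold changes and 90.3% of 4-fold changes, and 3.19% of its calls were false. Positions, exons, introns and transcript matches come from GENCODE 29, and sequences from RefSeq, both on GRCh38. No coordinates of the files' own build were used. Library totals were 23.95 M to 25.79 M counts (M, 1000000), and 3 counts in a library correspond to 0.195 to 0.251 CPM. Intervals and this limit cover counting error only.

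The members, the lists and the rule for named miRNAs were chosen with earlier results of these data known. The rule named the 10 members of highest mean CPM, the 6 of smallest p in each direction, the leading name of each number block, the 5 of widest ratio between libraries of a group, the names next to the limit of 60 counts, and those sharing a seed. Other names in the text were chosen for their position or after their values were seen.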

Additional observations from a re-analysis of the deposited data

Results flagged for a closer look

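Rows of class hairpin, which the comparisons above do not use, carried the name miR-6511a-3p with 18, 11 and 11 counts in PRMT1 libraries, against 6, 2 and 2 in control libraries. The lowest PRMT1 count, 11, lay above the highest control count, 6. In CPM the values were 1.17, 0.904 and 0.920 in PRMT1 libraries and 0.440, 0.160 and 0.156 in control libraries. The name was flagged because every PRMT1 library lay above every control library in these rows, so that separation carries no test. It had no counterpart in the mature rows of the same name. Those had 16, 20 and 9 counts in PRMT1 libraries and 13, 6 and 26 in control libraries. Of the 5 members with rows of class hairpin, the groups overlapped for the other 4, so 20% did not overlap. Among the mature rows, groups did not overlap for 10.2% of 668 names.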

How the results depend on the processing

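The counts and directions depended on the processing as follows. The number of known miRNAs past the threshold was 0 by edgeR, 4 with DESeq2 and no filter, 9 with edgeR and no filter, and 1 with the replicate number as a block. A member was among them only with DESeq2, where 1 was called, miR-12135. Leaving out single libraries gave 0 to 1 known miRNAs, the 1 without PRMT1 library 1 being miR-378e, and 0 members each time. Same-numbered libraries deviated from their group means with correlations of -0.173, 0.163 and -0.164 over 668 miRNAs. PRMT1 library 3 and control library 1 reached 0.265. With so few libraries in a group, these values cannot decide whether the libraries are paired. With the replicate block the members' median log2 fold change was 0.07. It ran between -0.17 and 0.17 when single libraries were left out, and was -0.17 without control library 2. It was -0.02 with RLE factors, -0.01 with upper quartile factors, 0.03 by library size, 0.05 with a filter of 10 CPM and -0.09 with all classes of rows.

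The members' share of known counts was 0.0900% in PRMT1 cells with a limit of 120 counts, and 0.0984% with miR-4485-3p and miR-4454 kept. It was 0.0747% in PRMT1 cells without members that match another annotated RNA. Without the 2 most abundant members it was 0.0306% in PRMT1 cells and 0.0239% in control cells. These last 2 settings were chosen after seeing the data. As a share of all counts it was 0.0492% in PRMT1 cells and 0.0435% in control cells. Leaving out single libraries gave 0.0923% to 0.0960% in PRMT1 cells and 0.0698% to 0.104% in control cells.

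Over 31 named and tested members, 478 of 502 alternative log2 fold changes kept direction and call, and 0 passed the threshold. The 24 of opposite sign belonged to 9 members. miR-6511a-3p was 0.14 with limma-voom, 0.091 with the replicate block and 0.60 with hairpin rows joined, an alternative chosen after seeing the data. miR-12136 was 0.016 with limma-voom and 0.015 with the replicate block. With all classes of rows, miR-6724-5p was -0.024 and miR-4284 was -0.021. Leaving out single libraries gave ranges of -0.36 to 0.26 for miR-12136, -0.080 to 0.29 for miR-4488, -0.077 to 0.69 for miR-4787-3p and -0.33 to 0.56 for miR-6724-5p. The ranges were -0.23 to 0.018 for miR-7706, -0.70 to 2.77 for miR-4284, -0.30 to 3.70 for miR-10396a-5p, -0.39 to 0.59 for miR-6511a-3p and -0.15 to 0.72 for miR-5010-5p. The cause of these changes of sign was not tested. The median standard error was 0.456 for the members under 2 CPM and 0.324 for the 2 at 100 CPM or more. The median variance between libraries was 2.26 times counting error under 2 CPM and 310 times at 100 CPM or more.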
